A study of Homo sapiens
Rattus norvegicus and Homo sapiens with 10 samples.

Results

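RNA of 6 brain tumours grown from U251N, an established human glioblastoma cell line, was set against RNA of 1 culture of the same line kept in vitro. These were 7 of the 10 libraries of the series. Genes were chosen where all 6 tumours lay on one side of the culture. Of 14234 genes past a filter on low values, in a table of 62754 genes, 7806 (54.8%) met that rule and 6428 (45.2%) did not. With 1 culture library the culture arm has no spread of its own, so every comparison of tumours with culture below is a description and carries no p-value.

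Each graft was started from 50000 log-phase U251N cells placed by stereotaxis in the brain of an adult female RNU/RNU rat. These athymic animals lack T cells but keep other immune cells. The 3 primary tumours had not been ablated. The 3 recurrent tumours had regrown after laser interstitial thermal therapy guided by diffusion-weighted imaging, in which a light fibre heats the tumour. The labels name no other treatment. The culture received no treatment and never passed through an animal. Of the 3 tumour-free control brains, which did not enter the choice of genes, replicate 1 was a failed graft and replicates 2 and 3 were procedural controls. Whether every library represents a separate animal is not spelled out in the labels, so the p-values between primary and recurrent tumours measure the spread between these samples, which may be in part technical.

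Cultured glioma cells live on a plastic surface in a medium of fixed composition, whereas a graft takes its nutrients, oxygen, metals and matrix contacts from the host brain. Cells answer such differences through well-known programmes. The integrated stress response, through the factor ATF4, raises amino acid import and serine synthesis. NF-kappaB raises cytokines and their own inhibitors, HSF1 raises chaperones, and MTF1 raises the metal-binding metallothioneins. Glioma cells can also carry traits of astrocytes, such as the filament protein GFAP.

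Total estimated counts on human genes were 65058642 in the culture and 20321590 to 39714714 in the tumours. The share of graft reads that the labels give was 42.52%, 45.38% and 64.40% in the primary tumours and 29.44%, 42.67% and 33.05% in the recurrent tumours. The RNA integrity number was 9.2 for the culture and 7.8 to 8.9 for the tumours. Primary replicate 2 stood apart from the other tumours, with the lowest integrity number (7.8) and the largest share of counts on structural small RNAs (14.10%, against 6.04% to 12.75% in the other tumours and 5.46% in the culture). Its difference from the culture also ran most with transcript length. Across protein-coding genes, Spearman's rho between the longest transcript and tumour minus culture was -0.424 in that tumour and between -0.195 and -0.092 in the other 5. Control replicate 3, although labelled tumour-free, held 4.90% graft reads, against 0.33% and 0.55% in the other controls, so that host background was read from control replicates 1 and 2. Markers chosen for glioma cells were present throughout, and the part of host cells in their levels was not tested. Of 10 such markers 2 lay above the culture in all 6 tumours and 6 below. The summed level of 10 glioma line markers, among them VIM, NES, CD44 and SOX2, was 14122 CPM (counts scaled to a common total, defined below) in the culture and 10125 to 11707 CPM in the tumours.

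Levels are given in CPM, the count of a gene as a share of its library's total on human genes, with that total adjusted by TMM scaling for the library's composition. Differences are tumour minus culture on the log2(CPM + 1) scale, which understates the change of low genes. The filter kept genes for which the mean of the culture's level and the tumours' mean level was at least 1 CPM. A gene is called at least 2-fold away when even the tumour nearest to the culture differs by 1 or more on that scale, in the same direction as the other 5. All 6 tumours lay above the culture for 3568 genes (25.1% of those past the filter) and below it for 4238 (29.8%). Every tumour was at least 2-fold above the culture for 220 genes (1.55%) and at least 2-fold below it for 370 (2.60%). These 590 genes made up 4.15% of the genes past the filter. Over all 14234 genes the median difference was -0.02, and the 5th and 95th percentiles were -1.16 and 0.92. Just inside the upper limit lay RNF7 and MAP6, whose nearest tumours were both 1.001 above the culture, and just outside it ACAT2 and FERMT2, both at 0.998. On the lower side ADGRL3 and TBXAS1 were just inside (-1.001) and PLEKHH3 and PROB1 just outside (-0.998).

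**Figure D1:**
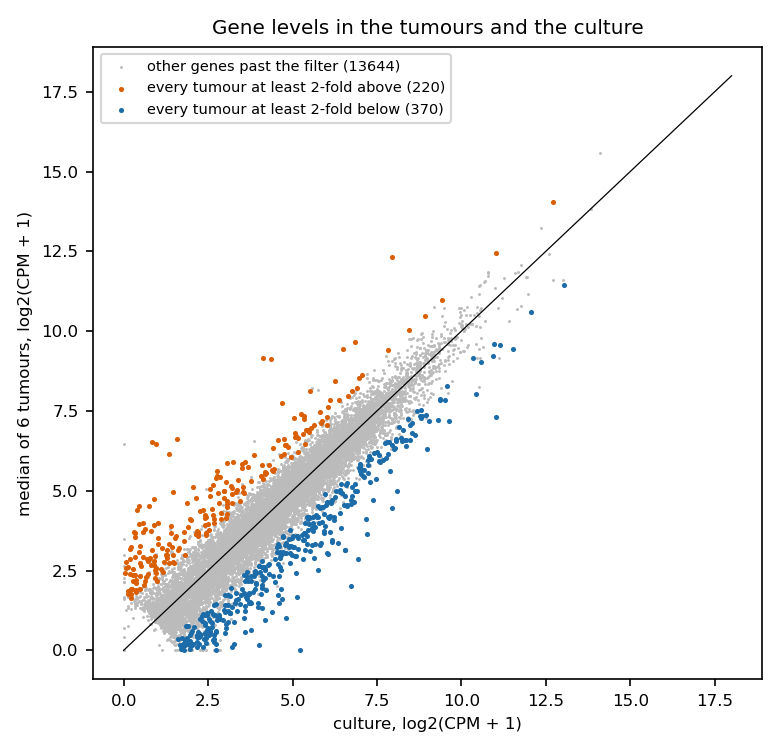
Level of each of the 14234 genes past the filter in the culture (horizontal axis) and the median of the 6 tumours (vertical axis), both log2(CPM + 1), with the line of equal level. The 220 genes with every tumour at least 2-fold above the culture and the 370 with every tumour at least 2-fold below lie off a dense diagonal.

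As wholes the tumours resembled each other more than the culture. Pearson correlations over genes, on log2(CPM + 1), were 0.957 to 0.985 between tumours and 0.921 to 0.941 between a tumour and the culture. Genes are not independent replicates. The library protocol was shared, but the tumours were also cut from brain and carried host RNA, unlike the culture. The 220 genes at least 2-fold above included 203 protein-coding genes, and the 370 below included 320, of 12452 protein-coding genes past the filter. Median length of the longest annotated transcript was 3076 bases for the genes at least 2-fold above, 4460 for those below and 3810 for all protein-coding genes, and the part of transcript length in the calls was not tested. The culture differed from the tumours at once in surroundings, dissection, host RNA, depth and RNA integrity, and these cannot be told apart with 1 culture. In bulk RNA, fewer cells of a type and less RNA per cell cannot be told apart either.

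The genes farthest above the culture coded for keratins, matrix and contractile proteins, a chaperone, and secreted or surface proteins. KRT75, a keratin best known from hair follicles (GRCh38 chromosome 12, 52424070 to 52434525, minus strand), was at 0.942 CPM in the culture, at 102, 97 and 78.5 CPM in the primary tumours and at 132, 47.5 and 62.8 CPM in the recurrent tumours. The tumour median was 93.1 times the culture level. The culture's 95% Wilson interval, which covers counting error alone, was 0.738 to 1.2 CPM. No tumour came near it, which follows from the choice of this gene for its distance from the culture. KRT17, a keratin of basal and injured epithelium (chromosome 17, 41619441 to 41624842, minus strand), was at 0.795 CPM in the culture, 89.1, 92.7 and 58.1 CPM in the primary and 41.6, 172 and 118 CPM in the recurrent tumours. Its median was 114 times the culture level, and the primary values fell inside the wide recurrent range.

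COL1A1 makes the first chain of type I collagen, the main fibre of connective tissue (chromosome 17, 50183289 to 50201632, minus strand). It was at 16.5 CPM in the culture, at 868, 686 and 1411 CPM in the primary tumours and at 477, 401 and 279 CPM in the recurrent tumours. All 6 were far above the culture, by 35.2 times at the median. The primary and recurrent values did not overlap, as for 2250 of the 14234 genes past the filter (15.8%). Each later mention of groups without overlap is to be read beside that share. CRYAB, a small heat shock protein abundant in astrocytic tumours (chromosome 11, 111908565 to 111923722, minus strand), was at 1.97 CPM in the culture, 95.6, 106 and 99.5 CPM in the primary and 50.8, 115 and 41.5 CPM in the recurrent tumours. The primary tumours were close together and the recurrent tumours were not. CD34, a surface mucin of blood progenitors and vessel lining (chromosome 1, 207880972 to 207911402, minus strand), was at 1.52 CPM in the culture, 62.3, 29 and 53 CPM in the primary and 78.4, 77.5 and 87.7 CPM in the recurrent tumours. Here the recurrent tumours were the higher group without overlap. Of 10 endothelial markers 2 (CLDN5 and SLCO1A2) were at 0 in all 6 tumours and 6, these included, were under 1 CPM in every tumour, with PECAM1 reaching 0.194 CPM and CDH5 0.23 CPM. Their summed level was 11.6 CPM in the culture and from 9.78 to 19.7 CPM in the tumours. KDR, a receptor of vascular endothelial growth factor, was above the culture in all 6 tumours, at 5.09 CPM in the culture and from 6.11 to 15.9 CPM in the tumours, and EGFL7 was below in all 6. The part of endothelial cells in the level of CD34 was not tested.

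CXCL12, a chemokine that draws cells bearing CXCR4 (chromosome 10, 44370165 to 44386493, minus strand), was at 0.868 CPM in the culture, 30.6, 19 and 24 CPM in the primary and 25.6, 26 and 29.4 CPM in the recurrent tumours. The primary and recurrent values overlapped. ACTG2, an actin of smooth muscle, was at 0.25 CPM in the culture on 17 counts (interval 0.156 to 0.401 CPM) and from 6.47 to 19.6 CPM in the tumours. The actin-binding TPM1 was at 89.8 CPM in the culture and from 516 to 1102 CPM in the tumours. The 15 protein-coding genes farthest above also included MT1E, BEX1, TNFRSF9, SPOCD1 and BIRC3. TNFRSF9, a receptor of the tumour necrosis factor family, was 16.6 times and BIRC3, an inhibitor of apoptosis induced by NF-kappaB, was 10.7 times the culture level at the tumour median.

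The genes farthest below the culture included metabolic enzymes and regulators and several epithelial genes. OGDHL, an oxoglutarate dehydrogenase-like enzyme (chromosome 10, 49734643 to 49762379, minus strand), was at 104 CPM in the culture, 1.39, 3.35 and 2.74 CPM in the primary and 2.82, 6.24 and 3.36 CPM in the recurrent tumours, a level 33.9 times lower at the median. TXNIP, which is induced by glucose and restrains its uptake (chromosome 1, 145992435 to 145996600, minus strand), was at 2066 CPM in the culture, 174, 154 and 174 CPM in the primary and 160, 113 and 118 CPM in the recurrent tumours. Its tumour median was 13.2 times lower. PCK1, the cytosolic enzyme that commits carbon to glucose synthesis, was at 12.8 CPM in the culture and from 0.254 to 1.15 CPM in the tumours. PPARGC1A, a coactivator of mitochondrial biogenesis (chromosome 4, 23755041 to 23904089, minus strand), was at 80.3 CPM in the culture and from 6.64 to 13 CPM in the tumours.

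Among the epithelial genes, the transcription factor EHF was at 33.9 CPM in the culture and from 0.973 to 2.83 CPM in the tumours. SCNN1A, the alpha subunit of the epithelial sodium channel, was at 23.2 CPM in the culture and from 0.466 to 2.63 CPM in the tumours. The laminin receptor BCAM was at 144 CPM in the culture and from 14.2 to 23.2 CPM in the tumours. EEF1A2, the elongation factor isoform of neurons and muscle, was at 272 CPM in the culture and from 24.3 to 38 CPM in the tumours, 8.86 times lower at the median. ABCA13, a large transporter of the lipid-moving ABCA family, was at 122 CPM in the culture and 19.7 times lower at the tumour median. HRH2, a histamine receptor, was at 8.67 CPM in the culture and at 0 to 0.324 CPM in the tumours. WSCD1, FAM78B, VWDE and the unnamed genes ENSG00000276289 and ENSG00000266086 completed the 15.

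In the control brains without appreciable graft (replicates 1 and 2), the larger count came to at most 1.49% of the tumours' median count for the genes named above the culture, the highest being TNFRSF9. For the 15 genes below it exceeded 10% for EHF (16.5%), ENSG00000266086 (12.4%) and FAM78B (33.8%), and the part of host reads in those low tumour values was not tested. Across the genes at least 2-fold away, 5 of the 220 above and 30 of the 370 below exceeded 10%, against 369 of all 14234. With control replicate 3, which held graft reads, 139, 212 and 9331 did, among them COL1A1 (88.8%), KRT75 (44.0%) and CXCL12 (41.1%). These shares are of raw counts, not scaled for depth. Outside structural small RNAs, control replicates 1 and 2 held 100754 and 175793 counts and the tumours 17731206 to 37317157. A low share therefore does not show that host signal was absent.

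Control replicate 3 was not used to choose the genes, yet carried graft reads. With structural small RNAs left out of the totals, it lay above the culture for 210 of 217 of the genes at least 2-fold above (96.8%), for 6 of 367 of those below (1.63%), and for 6126 of all 13954 genes compared (43.9%). Its median difference from the culture was 1.75 for the first set and -1.83 for the other. That library shares the culture with the tumours as its reference, so it does not check the culture's own values. Because it also held graft reads, these shares are not an independent check of the chosen genes.

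Gene lists for known pathways were then counted in the same way, with members under the filter left out of the counts. Because the filter can admit a gene through the side on which it is high, these counts describe the members that passed. They are to be read beside the 25.1% above, 29.8% below and median of -0.02 over all genes. Counts at 2-fold are to be read beside 1.55% above and 2.60% below over all genes.

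**Figure D2:**
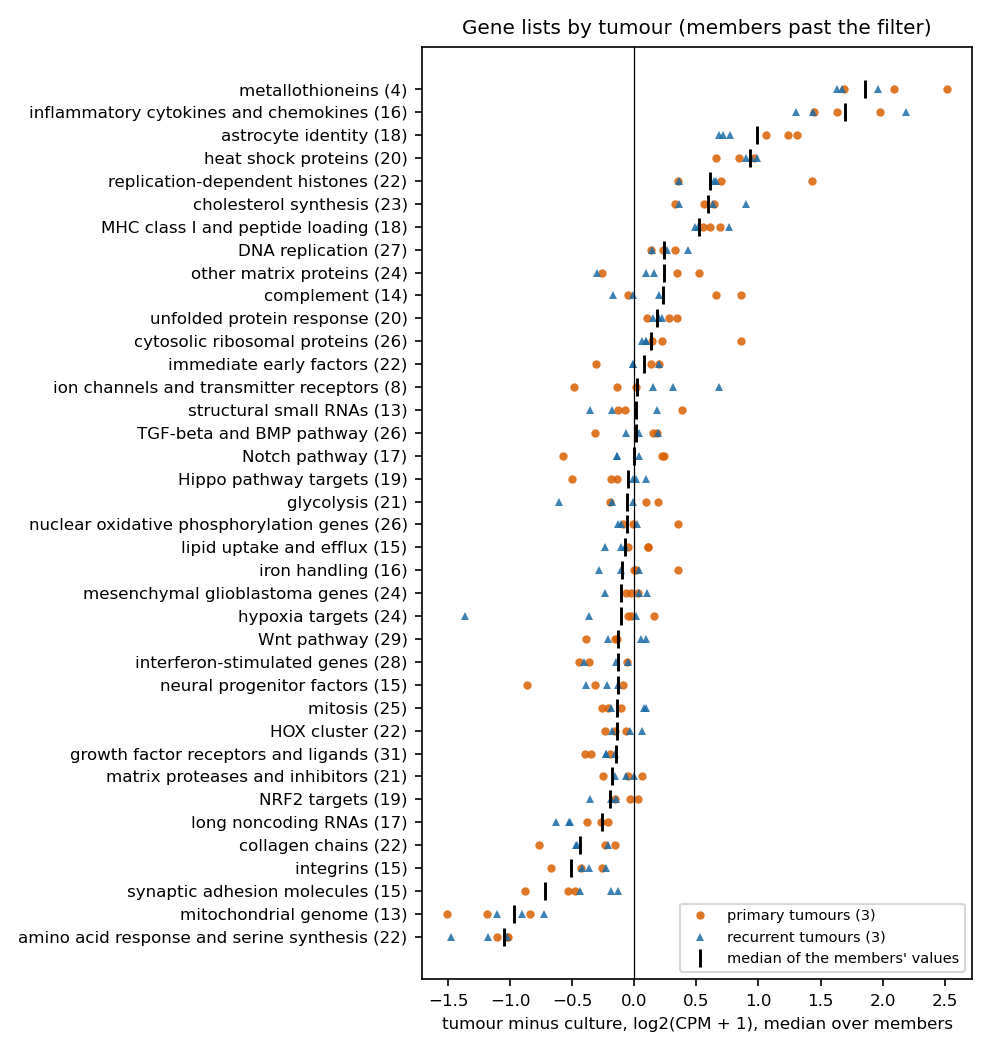
Median difference from the culture, tumour minus culture on log2(CPM + 1), of the members of each gene list that passed the filter (number in parentheses), for each primary tumour (circle) and recurrent tumour (triangle), with the median of the members' own medians as a bar. Metallothioneins (1.86) and inflammatory cytokines (1.70) lie highest, and the amino acid response list (-1.05) and mitochondrial genome (-0.97) lowest, with every tumour on the same side in these 4 lists.

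Genes of the amino acid response and of serine synthesis were lower in the tumours. Of 22 members, all past the filter, 18 lay below the culture in all 6 tumours, 9 of them at least 2-fold, and 0 lay above. The median difference was -1.05, and the medians by tumour ran from -1.48 in recurrent replicate 1 to -1.02 in primary replicate 2. CHAC1, which breaks down glutathione and is induced by ATF4, was at 29.4 CPM in the culture, 4.11, 6.19 and 4.29 CPM in the primary and 6.34, 7.31 and 5.18 CPM in the recurrent tumours. TRIB3, a pseudokinase of the same response, was at 84.1 CPM in the culture and from 14.9 to 22.7 CPM in the tumours. Asparagine synthetase, ASNS, was at 119 CPM in the culture and from 29.9 to 41.3 CPM in the tumours, 3.84 times lower at the median. The 6 tumours were close together for each of these genes.

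The enzymes of the serine pathway followed the same order. PHGDH, which starts the pathway, was at 380.0 CPM in the culture and from 148 to 192 CPM in the tumours, PSAT1 at 204 CPM and from 45.9 to 77.1 CPM, and PSPH, which ends it, at 326 CPM and from 92.9 to 141 CPM. SLC7A11, the cystine importer, was at 225 CPM in the culture, 62.9, 54.3 and 53.1 CPM in the primary and 78.9, 76.4 and 97.7 CPM in the recurrent tumours, so that the recurrent tumours lay nearer to the culture without overlap. ATF4 itself was at 444 CPM in the culture and 1.74 times lower at the tumour median, below it in all 6 tumours. DDIT3, the apoptotic factor CHOP, was at 38.2 CPM in the culture and from 10.4 to 31.6 CPM in the tumours, below it in all 6 but not 2-fold. The 4 members on neither side were NUPR1, SLC7A1, CEBPB and VLDLR. Chaperones of the unfolded protein response, a neighbouring pathway of the endoplasmic reticulum, did not share this direction. Of 20 members 10 lay above and 4 below, the median was 0.18, and HSPA5, its main chaperone, was at 1106 CPM in the culture and from 796 to 1128 CPM in the tumours.

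Inflammatory cytokines, chemokines and NF-kappaB targets were higher in the tumours. Of 27 members, 16 passed the filter, 12 of these lay above the culture in all 6 tumours, 9 at least 2-fold, and 1 lay below. The median difference was 1.70, with medians by tumour from 1.30 to 2.19. IL32 was at 0.5 CPM in the culture, 27, 14.9 and 13.5 CPM in the primary and 14.6, 6.85 and 14.9 CPM in the recurrent tumours. TNFAIP3, which shuts off NF-kappaB signalling, was at 6.83 CPM in the culture, 51.6, 31.5 and 29.3 CPM in the primary and 28, 43.2 and 30.3 CPM in the recurrent tumours. The inhibitor NFKBIA was at 17.1 CPM in the culture and from 43.3 to 64.8 CPM in the tumours. These feedback inhibitors were thus higher in every tumour.

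The adhesion molecule VCAM1 was at 12 CPM in the culture and from 40.2 to 68.3 CPM in the tumours. CCL2, which attracts monocytes, was at 227 CPM in the culture and from 486 to 925 CPM in the tumours. CXCL8, which attracts neutrophils, was at 4.39 CPM in the culture, 49.3, 70.2 and 20.9 CPM in the primary and 6.49, 52.1 and 10.4 CPM in the recurrent tumours, so that its distance from the culture varied from tumour to tumour. IL6 lay on neither side, at 8.17 CPM in the culture and from 3.92 to 11.6 CPM in the tumours, and CX3CL1 was the member below. Members at low levels that did not pass the filter included IL1A, CXCL1, CXCL2, CCL5, CCL20 and TNF. Of 13 defining markers of microglia and macrophages 8, including AIF1, CX3CR1, P2RY12 and C1QA, were at 0 in all 6 tumours. The summed level of the 13 was 22.1 CPM in the culture and from 22.6 to 28.5 CPM in the tumours, most of it CD68. The 2 past the filter had a median difference of 0.59, with 1 above the culture and 0 below. Counts are on human genes and the host is a rat, so they do not measure host cells directly. The part of such cells in the cytokine values was not tested. A count of 0 allows up to 3 counts, or 0.0755 to 0.148 CPM in a tumour.

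Interferon-stimulated genes, another arm of the innate response, showed another pattern. Of 28 members past the filter 3 lay above and 12 below, with a median of -0.13. IFITM1 was the 1 member at least 2-fold away, at 107 CPM in the culture and from 17.3 to 38 CPM in the tumours. Peptide loading and MHC class I genes, which respond to both NF-kappaB and interferon, lay above in 14 of 18 and below in 1, with a median of 0.52. HLA-B was at 484 CPM in the culture, 1482, 1326 and 1329 CPM in the primary and 1631, 1434 and 1387 CPM in the recurrent tumours, and the immunoproteasome subunit PSMB9 was at 10.7 CPM and from 27.1 to 45 CPM. Counts of HLA genes depend on how reads shared by near-identical genes were divided. Of 11 MHC class II genes, 1 passed the filter.

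Chaperones of the heat shock response were higher in the tumours, most of them by less than 2-fold. Of 20 members, 16 lay above the culture in all 6 tumours and 1 below, with a median of 0.93, and 3 (CRYAB, HSPA1B and HSPA8) were at least 2-fold above. HSPA8, the constitutive chaperone, was at 692 CPM in the culture, 1537, 1978 and 2086 CPM in the primary and 2332, 1858 and 2003 CPM in the recurrent tumours. HSPA1B, the inducible chaperone, was at 75.7 CPM in the culture, 348, 210.0 and 347 CPM in the primary and 443, 399 and 285 CPM in the recurrent tumours. Its near-identical copy HSPA1A was at 4.34 CPM in the culture, at 3.15 CPM in primary replicate 2 and from 11.1 to 18.3 CPM in the other tumours, and the division of reads between the copies is uncertain. HSP90AA1 was at 1760.0 CPM in the culture and from 2935 to 4107 CPM in the tumours. HSF1, the factor itself, was at 56.6 CPM and from 62.8 to 81.8 CPM, and HSPA4L was the member below.

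Of 10 metallothioneins, which bind zinc and copper, 4 passed the filter and every tumour was at least 2-fold above the culture for all 4. MT1E was at 1.77 CPM in the culture, 44, 45.7 and 30.9 CPM in the primary and 29.8, 28.7 and 27.3 CPM in the recurrent tumours. MT1X was at 5.95 CPM in the culture, 31.3, 45.6 and 27.2 CPM in the primary and 19.8, 33.8 and 25.1 CPM in the recurrent tumours. MT2A was at 38.3 CPM in the culture and from 83.3 to 126 CPM in the tumours, and MT1F at 0.957 CPM and from 3.6 to 8.65 CPM. For MT1E the primary tumours were the higher group without overlap, by a small margin. Primary replicate 2 had the highest list median (2.52, against 1.63 to 2.09 in the other tumours). The remaining 6 (MT1A, MT1B, MT1G, MT1H, MT1M and MT3) were too low to be counted. These short genes are near-identical neighbours on chromosome 16, and counts of single members depend on the division of shared reads.

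**Figure D3:**
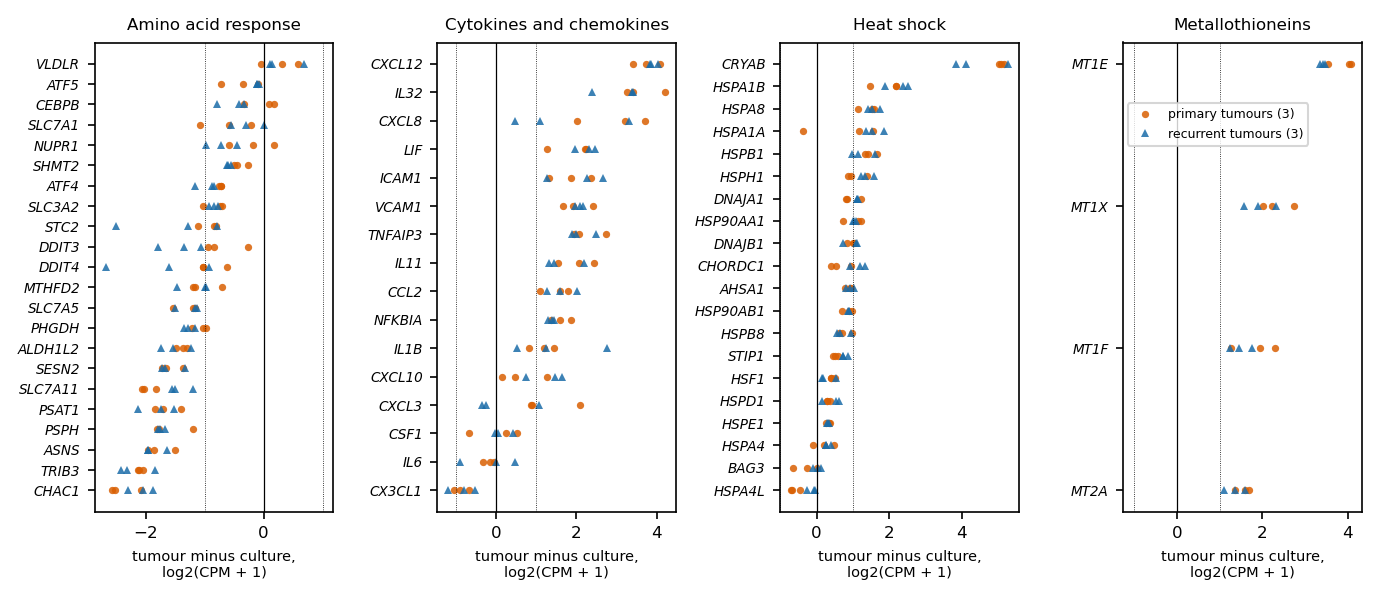
Difference from the culture, tumour minus culture on log2(CPM + 1), of each member past the filter of the amino acid response, cytokine, heat shock and metallothionein lists, for 3 primary tumours (circles) and 3 recurrent tumours (triangles). Dotted lines mark 2-fold, CHAC1 and TRIB3 lie lowest in their list, and all 4 metallothioneins lie past the 2-fold line in all 6 tumours.

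Astrocyte genes were higher in the tumours. Of 24 members 18 passed the filter, 10 lay above the culture in all 6 tumours, 7 at least 2-fold, and 1 (SOX9) below. GFAP, the filament protein that defines astrocytes, was at 132 CPM in the culture, 449, 577 and 591 CPM in the primary and 301, 276 and 339 CPM in the recurrent tumours. The recurrent tumours lay between the culture and the primary tumours without overlap. S100B, a calcium-binding protein of astrocytes, was at 6.27 CPM in the culture, 38.6, 56.7 and 46 CPM in the primary and 45.8, 15.8 and 22.1 CPM in the recurrent tumours. SPARCL1 was at 0.5 CPM in the culture and from 6.29 to 25 CPM in the tumours, and the gap junction protein GJA1 was at 125 CPM and from 296 to 439 CPM. Other defining genes of mature astrocytes were low in all libraries: AQP4 reached 0.551 CPM in the tumours and 0.221 CPM in the culture, and the glutamate transporter SLC1A2 was at 2.5 CPM in the culture and from 0.551 to 2.75 CPM in the tumours. In control replicates 1 and 2, GFAP gave 6 and 52 counts and S100B 0 in both, against at least 5988 and 414 counts in the tumours. These are raw counts. Outside structural small RNAs the 2 controls held 100754 and 175793 counts in all and the tumours 17731206 to 37317157. The small control counts therefore do not show that host levels were low. The part of host astrocytes in these values was not tested. The list's median was 0.99, with 1.24, 1.06 and 1.31 in the primary and 0.77, 0.71 and 0.68 in the recurrent tumours.

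Neural progenitor factors did not follow. Of 15 past the filter 2 lay above and 7 below, with SOX2 at 226 CPM in the culture and from 117 to 185 CPM in the tumours and the filament protein NES at 711 CPM and from 1138 to 1836 CPM. Mesenchymal glioblastoma genes were divided, 8 of 24 above and 9 below. SNAI2 and CHI3L1 were among the 3 at least 2-fold above, whereas CD44 was at 4038 CPM in the culture and from 2233 to 2658 CPM in the tumours. SNAI2, a repressor of epithelial genes, was at 5.71 CPM in the culture, 43.4, 51.6 and 54.4 CPM in the primary and 35.8, 38.5 and 25.3 CPM in the recurrent tumours.

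Collagen chains differed in both directions. Of 22 past the filter 6 lay above and 12 below, 2 and 3 of them at least 2-fold. COL6A3, a chain of the beaded filament type VI collagen, was at 7.27 CPM in the culture, 74.7, 21.3 and 107 CPM in the primary and 23.8, 139 and 43.9 CPM in the recurrent tumours. Its partners COL6A1 and COL6A2 and the second type I chain COL1A2 also lay above in all 6 tumours. COL1A2 was at 557 CPM in the culture and from 681 to 1176 CPM in the tumours, a far smaller distance than that of COL1A1. On the other side, COL11A1, a fibril-forming chain, was at 1975 CPM in the culture and from 391 to 983 CPM in the tumours. The basement membrane chain COL4A5 was at 253 CPM and from 40.2 to 113 CPM, and the transmembrane COL13A1 at 15.8 CPM and from 0.906 to 5.93 CPM. The type IV chains COL4A3, COL4A4 and COL4A6 lay below in all 6 tumours as well, and COL4A1 on neither side.

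Integrins, the receptors for these matrix proteins, were lower on balance, with 9 of 15 below, 2 above (ITGA4 and ITGB3), a median of -0.51 and 0 at 2-fold in either direction. ITGB1, the shared beta subunit, was at 650.0 CPM in the culture and from 597 to 711 CPM in the tumours. Of 24 other matrix proteins 8 lay above and 9 below. FMOD and ELN were at least 2-fold above, with ELN, elastin, at 0.0442 CPM in the culture on 3 counts and from 2.3 to 6.39 CPM in the tumours, and the laminin chain LAMB2 was at least 2-fold below. The 8 pericyte markers gave a summed level of 19.6 CPM in the culture and from 17.3 to 56.6 CPM in the tumours. KCNJ8, ABCC9 and ANPEP were below 1 CPM in every tumour, and the part of such cells in the collagen values was not tested.

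All 13 protein-coding genes of the mitochondrial genome lay below the culture in all 6 tumours, with a median of -0.97. MT-CO2, a subunit of cytochrome oxidase, was at 2253 CPM in the culture, 665, 841 and 563 CPM in the primary and 750.0, 768 and 877 CPM in the recurrent tumours. MT-ATP8, a small subunit of the ATP synthase, was at 245 CPM in the culture, 78.1, 60.0 and 48.2 CPM in the primary and 102, 94.3 and 110.0 CPM in the recurrent tumours, without overlap of the groups. MT-ND1, the member nearest to the culture, was at 714 CPM and from 325 to 653 CPM. The 13 share 1 polycistronic origin and are not independent. Nuclear genes of oxidative phosphorylation showed no such shift, with 5 of 26 above, 5 below and a median of -0.06. Primary replicate 3, with the largest share of graft reads (64.40%), had the lowest mitochondrial median (-1.51). The part of graft share in these levels was not tested.

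**Figure D4:**
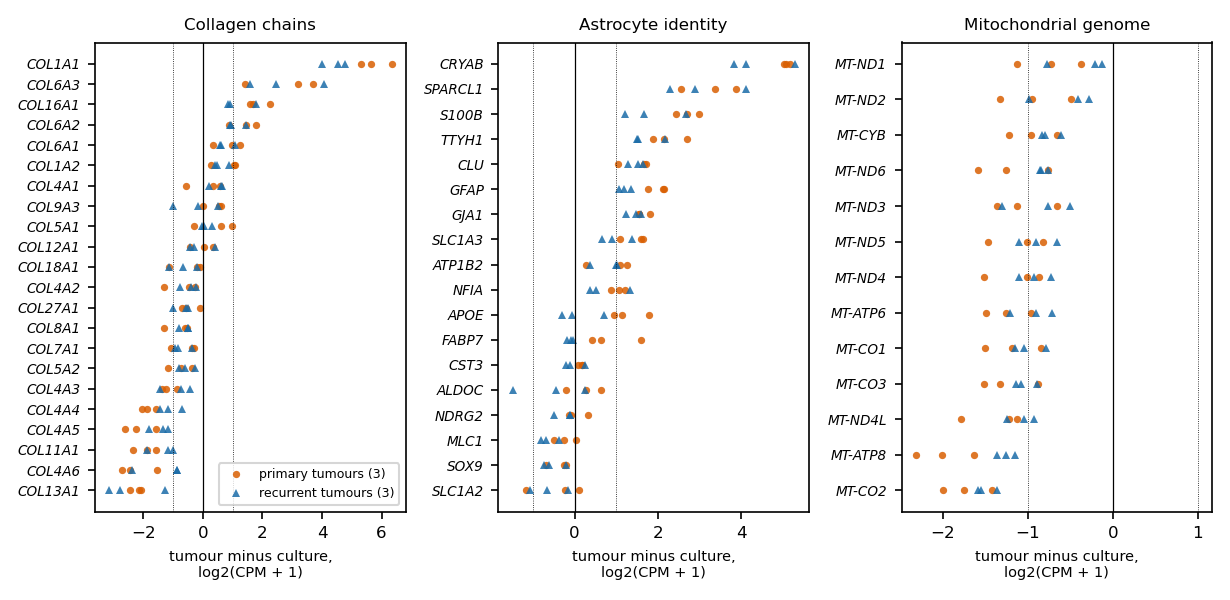
Difference from the culture, tumour minus culture on log2(CPM + 1), of each member past the filter of the collagen, astrocyte and mitochondrial genome lists, for 3 primary tumours (circles) and 3 recurrent tumours (triangles), with dotted lines at 2-fold. Collagen chains spread over both sides from COL1A1 to COL13A1, and all 13 mitochondrial genes lie left of 0.

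Growth-related lists differed from each other in small steps. Of 27 DNA replication genes 15 lay above and 3 below (median 0.24), whereas of 25 mitosis genes 4 lay above and 9 below (median -0.14). In both lists 0 members were 2-fold away in all 6 tumours. MCM5, a helicase subunit loaded before S phase, was at 61.3 CPM in the culture and from 108 to 128 CPM in the tumours. MKI67, the usual marker of cycling cells, was at 1122 CPM in the culture and from 537 to 1476 CPM in the tumours, on neither side. Of 22 replication-dependent histones 18 lay above and 0 below (median 0.61), with H2BC8 at 10.3 CPM in the culture and from 42.7 to 61.5 CPM in the tumours and H2AC8 at 65 CPM and from 158 to 294 CPM. Primary replicate 2 had the highest medians for histones (1.43, against 0.35 to 0.70 in the other tumours) and for cytosolic ribosomal proteins (0.86, against 0.06 to 0.22), which are short transcripts. The part of its RNA integrity in these values was not tested.

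Cholesterol synthesis genes, under the factor SREBF2, were modestly higher, with 13 of 23 above, 2 below, a median of 0.59 and 0 at 2-fold. HMGCS1, at the head of the pathway, was at 28.2 CPM in the culture and from 43.6 to 111 CPM in the tumours. Hypoxia targets varied from tumour to tumour. Of 24 members 2 lay above and 9 below. The median was -1.37 in recurrent replicate 1, the tumour with the smallest share of graft reads (29.44%), and from -0.37 to 0.16 in the other 5. VEGFA, the angiogenic factor, was at 1157 CPM in the culture, 747, 849 and 744 CPM in the primary and 224, 702 and 447 CPM in the recurrent tumours. NDRG1 was at 226 CPM in the culture, at 64 CPM in recurrent replicate 1 and from 315 to 613 CPM in the other tumours, so that this tumour alone kept it off the side above. ANGPTL4, a secreted lipase inhibitor, was at 0.0589 CPM in the culture on 4 counts and from 1.86 to 9.75 CPM in the tumours, and the hormone STC1 was at 353 CPM and 2.67 times lower at the tumour median.

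Wnt ligands act through receptors and beta-catenin on target genes, several of which code for feedback inhibitors. Of 29 Wnt pathway members past the filter 7 lay above and 8 below, 4 and 1 of them at least 2-fold, with a median difference of -0.13. The shares above and below were close to those over all genes (25.1% and 29.8%). At 2-fold the shares over all genes were 1.55% above and 2.60% below, so the 4 of 29 above were a larger share. LGR5, a receptor and Wnt target, was at 1.63 CPM in the culture, 10.2, 12.1 and 27.3 CPM in the primary and 11.4, 14.7 and 11.4 CPM in the recurrent tumours. NKD1, a feedback inhibitor, was at 0.25 CPM in the culture and from 3.02 to 5.72 CPM in the tumours, and the transcription factor LEF1 at 33.7 CPM and from 78.5 to 145 CPM. AXIN2, the usual target gene, was at 3.09 CPM in the culture and from 4.69 to 12 CPM in the tumours. The secreted inhibitor SFRP1 was at 660.0 CPM in the culture and from 164 to 289 CPM in the tumours, and its relative SFRP4 at 7.3 CPM and from 19 to 34.7 CPM. The receptors FZD3, FZD5 and FZD6 and the coreceptor LRP5 lay below in all 6 tumours.

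Long noncoding RNAs were lower in the tumours where they differed most. Of 17 past the filter 2 lay above and 8 below, and NEAT1, MEG3 and MALAT1 were at least 2-fold below. NEAT1, the scaffold of paraspeckles in the nucleus, was at 504 CPM in the culture, 85.9, 132 and 40.9 CPM in the primary and 75.5, 80.3 and 72.7 CPM in the recurrent tumours. MALAT1, of nuclear speckles, was at 8326 CPM in the culture and from 1956 to 3855 CPM in the tumours, and the imprinted MEG3 at 68 CPM and from 7.73 to 20.6 CPM. The snoRNA host genes GAS5, SNHG1 and SNHG5 also lay below in all 6 tumours.

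The genes apart from the culture were then compared between the recurrent and primary tumours. The group labels did not enter the choice of genes, but the values of the same tumours did. Counts and shares of the chosen genes in this contrast are therefore not independent of the rule that chose them. With edgeR's quasi-likelihood F test on estimated counts (3 against 3, two-sided, Benjamini-Hochberg adjusted), 1 of 15928 genes passed an adjusted p of 0.05 (0.00628%). Of the 590 genes at least 2-fold from the culture 552 were tested and 0 passed, the smallest adjusted p being 0.267, while 73 (13.2%) had an unadjusted p under 0.05, against 1335 (8.38%) of all genes. DESeq2 called 13 of 556. Over all 30188 genes it called 66 higher and 42 lower in the recurrent tumours, and 14078 had no adjusted p. Of the 30 genes farthest from the culture 28 were tested in edgeR, 0 passed and 4 (COL1A1, CD34, MT1E and TPM1) had an unadjusted p under 0.05. COL1A1 averaged 988 ± 377 CPM (SD, n = 3) in the primary and 386 CPM (n = 3, range 279 to 477) in the recurrent tumours. Its log2 fold change, recurrent over primary, was -1.35 (SE 0.28, edgeR adjusted p = 0.276), and DESeq2 called it (SE 0.24, adjusted p = 3.58e-05). TPM1 had a log2 fold change of -0.70 (edgeR adjusted p = 0.444, DESeq2 adjusted p = 0.0131). GFAP averaged 539 ± 77.8 CPM in the primary and 305 ± 31.5 CPM in the recurrent tumours, a log2 fold change of -0.81 (SE 0.17, edgeR adjusted p = 0.267). Of 748 list genes 0 passed in edgeR, 114 had an unadjusted p under 0.05 and DESeq2 called 25. These stand beside the 8.38% of all genes at an unadjusted p under 0.05 in edgeR and the DESeq2 calls over all genes given above.

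Between-group fold changes had a median of -0.13 on the log2 scale for genes at least 2-fold above the culture, 0.01 for those below and -0.01 for all genes. The median of the recurrent tumours was nearer to the culture than that of the primary tumours for 63.2% of the genes above, 44.1% of those below and 51.3% of all. For the genes at least 2-fold away, these values are not independent of the choice of genes, which used the same tumours. Primary and recurrent tumours lay wholly on opposite sides of the culture for 90 genes with the primary tumours above and 97 with the recurrent tumours above. The 1 gene that passed in edgeR was among them. PEDS1-UBE2V1, a readthrough of PEDS1 into UBE2V1 (chromosome 20, 50081124 to 50153637, minus strand), was at 1.39 CPM in the culture, 12, 6.84 and 6.98 CPM in the primary and 0 in all 3 recurrent tumours. Against a floor of 3 counts over the recurrent group (0.0424 CPM) it was at least 203-fold lower in the recurrent tumours (edgeR adjusted p = 0.00977). The call did not hold once graft percentage entered the fit (edgeR adjusted p = 0.0648) and without primary replicate 2 (edgeR adjusted p = 0.135), and the other alternatives gave adjusted p-values from 6.57e-35 to 0.0435. It shares exons with both parent genes, so its count depends on how shared reads were divided.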

How the data were processed

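A single table of estimated counts by gene was deposited by the authors, with no scaling between libraries. The submitters' processing notes name STAR, Salmon 1.10.3, DESeq2 and GRCh38. Per the labels' protocols, tumour tissue was cut from frozen brain slices, RNA was purified without a DNase step, and ribodepleted libraries were stranded (ISR). Not given in the sources used here are the annotation release and which xengsort read classes (graft or host) entered the counts. Salmon divides reads shared by near-identical or overlapping genes by a model.

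Counts were rounded and scaled by TMM (edgeR 4.0.16, R 4.3.3) over the 6 tumours and the culture. Gene types, lengths and 1-based coordinates came from GENCODE release 29 on GRCh38, which matched 58261 of 62754 gene IDs and may differ from the authors' release. Tumours were compared with the culture by value and position alone, on log2(CPM + 1), for genes whose mean of culture CPM and mean tumour CPM was at least 1. The named genes were the 15 protein-coding genes on each side with the largest distance of the nearest tumour, up to 4 members of each list past 2-fold by the same distance, members past 2-fold the other way, textbook members of a list and cell type markers. A few further members were named after their values were seen, to complete a count or pathway, and a few genes that the rule names are not reported here. Members, lists and tests were chosen with earlier results of these data known. The recurrent and the primary groups were compared by edgeR's quasi-likelihood F test (filterByExpr, no covariate, Benjamini-Hochberg adjustment over all tested genes, threshold 0.05) and, as an alternative, DESeq2 1.42.0. Wilson intervals (95%) and floors of 3 counts, 0.0461 CPM in the culture and 0.0755 to 0.148 CPM in the tumours, cover counting error alone, because PCR copies cannot be recognised without molecular identifiers. The control brains gave 1358753, 1702196 and 4158124 counts, of which structural small RNAs took 92.58%, 89.67% and 31.29%. Replicates were numbered in record order, so that no number pairs samples. The alternatives were other scalings, pseudocounts, filters, fold limits, thinning to equal depth, leaving out genes counted in the controls, and leaving out each tumour.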

Additional observations from a re-analysis of the deposited data

Results flagged for a closer look

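The primary tumours all lay on one side of the culture and the recurrent tumours on the other for 90 and 97 genes, and the 3 with the largest margins are given here. The margin is the distance of the nearest tumour of either group from the culture on log2(CPM + 1). It was 1.25 for PEDS1-UBE2V1, with the primary tumours above. KCNH5, a voltage-gated potassium channel, had a margin of 0.40 with the recurrent tumours above: the culture was at 8.1 CPM, the primary tumours at 4.49 to 5.54 CPM and the recurrent tumours at 11 to 15.2 CPM. SPAG17, a protein of the axoneme of motile cilia, had a margin of 0.34 in the same direction: the culture was at 9.74 CPM, the primary tumours at 5.61 to 6.78 CPM and the recurrent tumours at 12.6 to 22 CPM. The next gene, DOCK3, had a margin of 0.33, so that no gap sets these 3 apart. These opposite positions were not tested against the culture. Between the groups themselves, edgeR's quasi-likelihood test gave adjusted p-values of 0.00977 for PEDS1-UBE2V1, which passed 0.05, and of 0.212 for KCNH5 and 0.221 for SPAG17, which did not. For PEDS1-UBE2V1 the call did not hold once graft percentage entered the fit (edgeR adjusted p = 0.0648) and without primary replicate 2 (edgeR adjusted p = 0.135).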

How the results depend on the processing

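Scaling, thinning to equal depth and the filter at a mean of 5 CPM kept each count of genes on one side or 2-fold away within 1.5 times its value. Scaling to the library total gave 2944 genes above and 4868 below (195 and 440 at 2-fold) and shifted the median gene to -0.08. Requiring 4-fold left 36 above and 30 below, and dropping the filter gave 9165 below. A pseudocount of 0.25 CPM gave 289 above and 486 below at 2-fold. Without each tumour in turn, 3662 to 4229 genes lay above and 4362 to 4721 below, and 226 to 252 and 394 to 424 at 2-fold. Leaving out genes over 10% of the tumour median in any control left 4903 genes, with 1223 above, 1391 below and 81 and 158 at 2-fold. The list medians were then 1.11 for cytokines (10 members), 0.36 for heat shock (8), 1.28 for astrocytes (8), 0.86 for MHC class I (7) and -1.70 for collagens (6), and the mitochondrial list gave no value. Control replicate 3 holds graft reads. With control replicates 1 and 2 alone, an alternative chosen after seeing the data, 215 and 340 genes were at 2-fold. The 10% limit is on raw counts. Outside structural small RNAs these 2 controls held 100754 and 175793 counts, and the tumours 17731206 to 37317157. Few genes could pass the limit at that depth, so the small change does not show that host signal was absent. For the 30 genes farthest from the culture, 360 of 376 values moved by less than the spread between tumours, 16 moved more and 0 reversed.

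Between recurrent and primary tumours edgeR called 1 gene and DESeq2 108 (66 higher and 42 lower in recurrent tumours), with 411 called by edgeR without a filter, 0 with graft percentage as a covariate (1152 at unadjusted p under 0.05), and 0 to 23 without 1 tumour in turn. It called 0 without primary replicate 2 and 23 without recurrent replicate 1, and 2 to 4 without primary replicate 3 or either of the remaining recurrent tumours. Of the 30 genes, 0 of the 28 tested were called by edgeR, 2 by DESeq2 and 2 without a filter. The cause of these differences was not tested. No paired analysis was possible because the replicate numbers follow record order. Depth limits the low side most: 3 counts are 0.148 CPM in recurrent replicate 1.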

Other observations

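Complement genes lay on both sides of the culture. Of 14 past the filter 5 lay above the culture in all 6 tumours and 5 below. The central component C3 was at 1.05 CPM in the culture and from 5.62 to 49.2 CPM in the tumours. The early protease C1S was at 1.37 CPM in the culture and from 3.92 to 14.1 CPM in the tumours, and CLU, which blocks the terminal complex, at 350.0 CPM and from 725 to 1159 CPM. The surface regulators CD46, CD55 and CD59 lay below in all 6 tumours, with CD55 at 24.3 CPM in the culture and from 4.44 to 11.2 CPM in the tumours.

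Growth factor genes differed within families. Of 31 past the filter 8 lay above and 13 below. HBEGF, a ligand of EGFR, was at 2.69 CPM in the culture, 27.9, 17.4 and 20.8 CPM in the primary and 18, 37 and 26.8 CPM in the recurrent tumours, whereas the ligands TGFA and EGF lay below in all 6 tumours. EGFR itself was on neither side, at 124 CPM in the culture and from 86 to 141 CPM in the tumours. The receptor FGFR3 was at 66.5 CPM in the culture, 18.2, 13.4 and 18.6 CPM in the primary and 19.4, 13.9 and 15.1 CPM in the recurrent tumours. In the TGF-beta family TGFB3 was at 11 CPM in the culture and from 38 to 81.7 CPM in the tumours, and TGFB2 at 221 CPM and from 56.2 to 98.9 CPM. Both were at least 2-fold away in all 6 tumours, in opposite directions.

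The summed level of 12 neuron markers was 513 CPM in the culture and from 777 to 1421 CPM in the tumours. Of the 4 past the filter 1 lay above and 2 below, both of these at least 2-fold, with a median difference of -0.99. In every tumour 7 of the 12 were under 1 CPM, so the higher sum does not describe most members. For 10 astrocyte markers, GFAP included, the sum was 285 CPM and from 604 to 1087 CPM, and for 10 oligodendrocyte markers 143 CPM and from 131 to 218 CPM. The part of host cells in these sums was not tested. A neuronal gene gave control counts above those of the tumours. The glutamate receptor subunit GRIA2 was at 0.132 CPM in the culture and from 1.4 to 24.8 CPM in the tumours, on 56 to 493 counts, and gave 2076, 1514 and 1369 counts in the controls.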
